A study of Mus musculus with 4 samples.

Results

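The TGF-beta and BMP receptors and regulators described here are 10 genes, all protein coding: the ligand Tgfb1, its latency partners Ltbp1 and Lrrc32, the receptors Tgfbr1, Tgfbr2, Bmpr1a and Bmpr2, and the intracellular Smad3, Smad6 and Smad7. They were taken by symbol, and each of the 10 matched 1 of the 41214 Ensembl identifiers in the deposited tables. RNA sequencing reads were counted in mouse megakaryocytes, the marrow cells that release platelets, sorted as lineage-negative cells carrying cKit, CD41 and CD61. The animals were C57Bl/6 mice aged 8 weeks, and the labels tie each of the 4 libraries to 1 group: Gfi1b wild-type with PF4-Cre, Gfi1b knockout with PF4-Cre, Gfi1b wild-type with ROSA-Cre and Gfi1b knockout with ROSA-Cre. Gfi1b encodes a zinc finger repressor of the megakaryocyte and red cell lineages. Both genotypes carry the Cre label of their model, the Pf4 promoter is active in megakaryocytes, and the labels describe neither the ROSA-Cre allele further nor the deleted exons nor any pooling of mice.

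TGF-beta is secreted as a latent complex in which the mature growth factor stays wrapped in its own propeptide and is tethered to a binding protein in the matrix or on a cell surface. Once released, the ligand joins a type II receptor kinase, which phosphorylates a type I receptor, which in turn phosphorylates receptor-regulated Smad proteins that enter the nucleus with Smad4. TGF-beta receptors signal mainly through Smad2 and Smad3 and BMP receptors through Smad1, Smad5 and Smad9, while Smad6 and Smad7 are inhibitory Smads that the pathway itself induces. Megakaryocytes and platelets store TGF-beta in their alpha granules, and in the marrow megakaryocytes are known as a source of the TGF-beta that holds stem cells quiescent.

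Gene counts summed to between 21835165 and 61652843 per library, the PF4-Cre pair being the deeper one, and a count of 0 allowed up to between 0.0487 and 0.137 CPM (a gene's reads relative to library size, here at a floor of 3 counts for counting error only). Gene CPM used TMM effective library sizes, and levels are compared between genes only as CPM per kb of merged exon length. Gfi1b itself had more counts in the libraries labelled knockout, 84744 against 10137 in PF4-Cre and 55122 against 5864 in ROSA-Cre, against the direction of the label. Below, knockout is the label of a library, and every direction given depends on it. The megakaryocyte list was present in every library, led by Itga2b (CD41), with a summed level of 6446 to 9528 CPM. Here and below, the gene said to lead a list has the highest mean CPM over the 4 libraries, not always the highest in each. Neutrophil markers summed to 1676 and 1798 CPM in the wild-type libraries and to 1003 (PF4-Cre) and 468 (ROSA-Cre) in the knockouts, led by Mpo. In the PF4-Cre knockout S100a9 (322 CPM) and S100a8 (237) were above Mpo (195). Stem cell markers, led by Mecom, summed to 104 and 82.0 CPM in wild-type and to 192 and 242 in knockout libraries. Endothelial markers, led by Tie1, stood at 314 to 371 CPM, mast cell and basophil markers, led by Prss34, at 63.3 to 109, monocyte and macrophage markers, led by Ccr2, at 34.9 to 86.5, erythroid markers, led by Hbb-bt, at 25.9 to 81.2, B cell markers, led by Cd79b, at no more than 29.6, stromal markers, led by Col1a2, at 7.55 to 29.8, and T cell markers, led by Cd4, at 0.893 to 2.19. Among the erythroid markers Hba-a1 and Hbb-bt were called higher and Klf1 lower (log2 fold changes 2.82, 2.53 and -2.31). Epor was the highest of them in the PF4-Cre and ROSA-Cre wild-type libraries (12.9 and 20.7 CPM). In bulk RNA of sorted cells, fewer cells of a type and less RNA per cell cannot be told apart.

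The question was how these 10 genes differ between the genotypes, with each Cre model acting as the replicate of the other (2 libraries per genotype). Receptors and the binding protein Ltbp1 were higher in libraries labelled knockout, the ligand Tgfb1 was lower, and Smad3, Smad7 and Lrrc32 did not pass the test. In edgeR's quasi-likelihood fit with the Cre model as a term, all 10 passed the filter on low counts, 6 rose (Tgfbr1, Tgfbr2, Bmpr1a, Bmpr2, Ltbp1 and Smad6) and 1 fell (Tgfb1), at a Benjamini-Hochberg adjusted p under 0.05. Over all 15063 genes tested, 12.6% rose and 9.59% fell. The median log2 fold change was 0.90 over the 10 genes and -0.02 over all tested genes. Over the 72 other pathway genes tested it was 0.12, with 12 higher and 5 lower. The 10 genes were chosen with earlier results of these data known, so their shares are no independent evidence about the pathway. In 6 of the 10 genes both knockout libraries lay above both wild-type libraries, as in 23.4% of all tested genes, and in 0 of 10 both lay below, against 23.7%. The p-values rest on 1 residual degree of freedom per gene, which is how far the genotype difference differs between the 2 Cre models. It is moderated by 6.25 prior degrees of freedom taken from all tested genes, so the error is largely shared between genes. Nothing in the labels says that the libraries are separate animals, so the p-values do not measure a spread between animals. Without the Cre model term edgeR called 0 of the 10 (6 at an unadjusted p under 0.05), whereas DESeq2's Wald test with that term called 5 higher and 1 lower. Over all 15063 genes, 2439 had an unadjusted p under 0.05 in that edgeR fit, and DESeq2 called 1675 higher and 1328 lower.

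**Figure D1:**
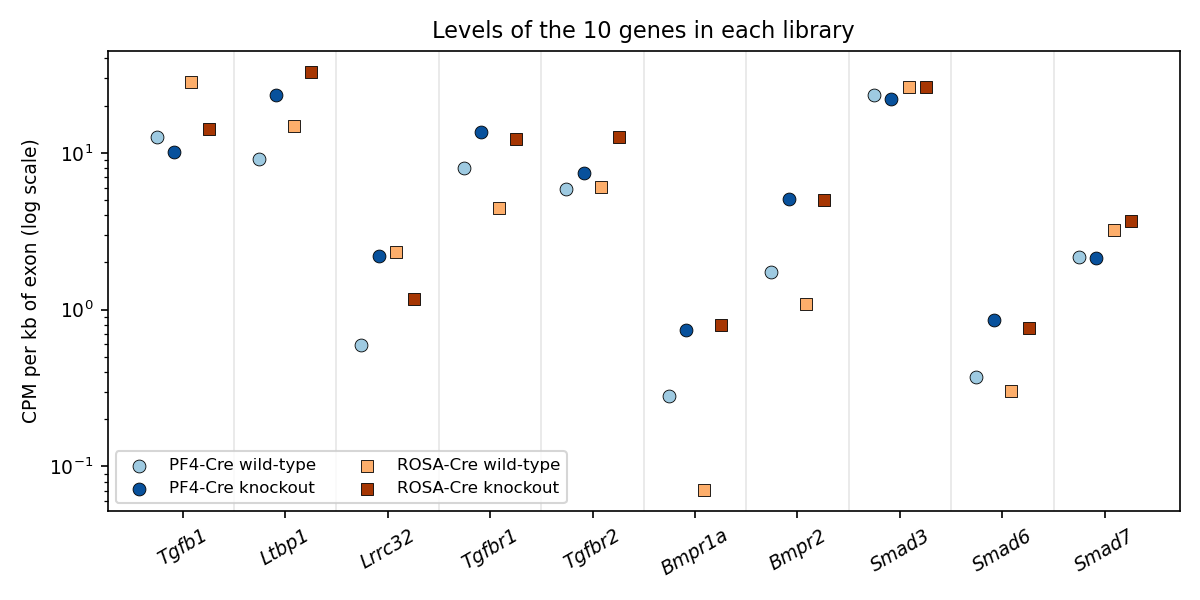
Level of each of the 10 genes in each library, as CPM on TMM effective library sizes per kb of merged exon length (y axis, log scale); circles are PF4-Cre, squares ROSA-Cre, pale wild-type and dark knockout, 1 library per point. The dark points lie above both pale points for Ltbp1, Tgfbr1, Tgfbr2, Bmpr1a, Bmpr2 and Smad6, while the 4 points of Smad3 lie between 21.9 and 26.4.

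Per length, the wild-type libraries held most of Smad3 (23.2 to 26.4 CPM per kb), Tgfb1 (12.6 to 28.3) and Ltbp1 (9.15 to 14.8). Next came Tgfbr1 (4.45 to 8.00) and Tgfbr2 (5.86 to 6.05), then Smad7 (2.16 to 3.21), Bmpr2 (1.09 to 1.74), Lrrc32 (0.596 to 2.33), Smad6 (0.304 to 0.371) and Bmpr1a (0.0704 to 0.282). Smad3 and Tgfb1, Tgfb1 and Ltbp1, Tgfbr1 and Tgfbr2, and Bmpr2 and Lrrc32 are neighbours in this order whose ranges over the 2 libraries overlapped. In the knockout libraries Ltbp1 came first (23.2 to 32.9 CPM per kb), and Bmpr2 (5.0 to 5.08) stood above Smad7 (2.13 to 3.68) with no overlap, the reverse of their wild-type order. Neighbours that overlapped there were Ltbp1 and Smad3, Tgfbr1 and Tgfb1, Tgfb1 and Tgfbr2, Smad7 and Lrrc32, and Smad6 and Bmpr1a.

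Tgfb1, the TGF-beta isoform of platelets (ENSMUSG00000002603, GRCm38 chromosome 7 from 25687002 to 25705077, plus strand), was the only one of the 10 to fall. Under PF4-Cre, wild-type cells had 3788 counts (63.4 CPM) and knockout cells 3078 (50.9 CPM). Under ROSA-Cre these were 3510 (143 CPM) and 1597 (71.3 CPM). Each knockout was below the wild-type of its own model, but the ROSA-Cre knockout was still above the PF4-Cre wild-type library, so the genotypes overlapped. The log2 fold change was -0.66 (SE 0.18, edgeR adjusted p = 0.0383), with knockout over wild-type ratios of 0.803 for PF4-Cre (0.765 to 0.842, as everywhere below the 95% Clopper-Pearson interval) and 0.500 for ROSA-Cre (0.471 to 0.531). Scaled to library totals, the call was lost at an edgeR adjusted p of 0.0503, with no filter on low counts at 0.0952, and it was lost whichever library was left out, the Cre model term being dropped there (adjusted p 0.0578 to 0.997, the highest without the ROSA-Cre wild-type library, where the log2 fold change was -0.03). Monocyte and macrophage markers stood at 80.8, 86.5, 80.4 and 34.9 CPM (PF4-Cre wild-type, its knockout, then ROSA-Cre wild-type, its knockout), with 2 of 6 called lower. Of 8 neutrophil markers, 4 were called lower (Elane, Mpo, Prtn3 and Ctsg), beside 9.59% of all tested genes. The others, S100a8, S100a9, Camp and Ltf, did not pass. Their PF4-Cre ratios were 1.23, 1.22, 1.13 and 0.995, and their ROSA-Cre ratios 0.347, 0.287, 0.232 and 0.226. Ccr2 likewise had 1.46 in PF4-Cre and 0.516 in ROSA-Cre. The part of these markers in the Tgfb1 result was not tested. Tgfb1 made up 97.7% to 99.2% of the summed per-length level of the 3 TGF-beta ligand genes in each library, Tgfb2 and Tgfb3 the rest.

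Ltbp1, whose product binds the latent complex covalently and lays it down in the matrix (ENSMUSG00000001870, chromosome 17 from 75005568 to 75392512, plus strand), had 5846 counts (97.8 CPM) and 14983 (248 CPM) in the PF4-Cre wild-type and knockout. In ROSA-Cre it had 3890 (158 CPM) and 7884 (352 CPM). Both knockout libraries were above both wild-type libraries. Ratios were close between the models, 2.53 (2.46 to 2.61) and 2.23 (2.14 to 2.32), and the log2 fold change was 1.25 (SE 0.12, edgeR adjusted p = 0.00132). Without the PF4-Cre wild-type or the ROSA-Cre knockout library, and without the Cre model term, the edgeR adjusted p was 0.224 and 0.21. The per-length level of Ltbp1 over that of Tgfb1 went from 0.728 to 2.30 for PF4-Cre and 0.523 to 2.33 for ROSA-Cre. Ltbp1 held 76.0% to 86.8% of the per-length level of the 4 latent TGF-beta binding protein genes.

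Lrrc32 encodes GARP, a leucine-rich repeat protein that displays latent TGF-beta on regulatory T cells and platelets (ENSMUSG00000090958, chromosome 7 from 98489283 to 98502181, plus strand). Its counts were 167 (2.79 CPM) in the PF4-Cre wild-type and 620 (10.2 CPM) in the PF4-Cre knockout. They were 269 (10.9 CPM) in the ROSA-Cre wild-type and 122 (5.45 CPM) in the ROSA-Cre knockout. The genotypes overlapped, and the pairs ran in opposite directions, with a ratio of 3.67 in PF4-Cre (3.09 to 4.38) and 0.498 in ROSA-Cre (0.399 to 0.62). The gene did not pass the genotype test (log2 fold change 0.53, SE 0.60, edgeR adjusted p = 0.568). Of the 8 T cell and regulatory T cell markers, 1, 2, 4 and 5 were at a count of 0 in that order, from the PF4-Cre wild-type to the ROSA-Cre knockout. Cd4, the most abundant of the 8 and the only one tested, had 107, 52, 22 and 14 counts (log2 fold change -0.92, SE 0.39, edgeR adjusted p = 0.135). The other 7 had at most 16 counts in any library, among them Cd3e, a chain of the T cell receptor complex, with 1, 3, 0 and 0 and Foxp3, the defining factor of regulatory T cells, with 0, 0, 16 and 5. The part of T cells in the Lrrc32 values was not tested. Nrros, which anchors latent TGF-beta on myeloid cells much as Lrrc32 does on platelets, had 95.4% to 98.8% of the summed per-length level of these 2 genes and 48.8 to 54.4 CPM per kb in the 4 libraries (log2 fold change 0.07, SE 0.12, edgeR adjusted p = 0.71).

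Bmpr2, the type II receptor for BMP ligands (ENSMUSG00000067336, chromosome 1 from 59763400 to 59879014, plus strand), rose in both models. Counts were 1875 (31.4 CPM) and 5526 (91.4 CPM) in the PF4-Cre wild-type and knockout. In ROSA-Cre they were 483 (19.6 CPM) and 2014 (89.9 CPM). The knockout libraries were nearly equal to each other and well above both wild-type libraries. The ratio was 2.91 in PF4-Cre (2.76 to 3.07) and 4.58 in ROSA-Cre (4.15 to 5.07), with a log2 fold change of 1.86 (SE 0.18, edgeR adjusted p = 0.00132). It was the only one of the 10 still called without each library in turn (adjusted p 0.000662 to 0.0139).

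Tgfbr2, the type II receptor that binds TGF-beta itself (ENSMUSG00000032440, chromosome 9 from 116084293 to 116175360, minus strand), rose less. Counts were 2865 (47.9 CPM) and 3697 (61.1 CPM) in PF4-Cre. They were 1218 (49.5 CPM) and 2314 (103 CPM) in ROSA-Cre. The wild-type libraries were alike, and both knockouts were above them, by 1.27 (1.21 to 1.34) and 2.09 (1.95 to 2.24). The log2 fold change was 0.70 (SE 0.18, edgeR adjusted p = 0.0352), and the call was absent with no filter on low counts (0.0648) and whichever library was left out (0.0941 to 0.866).

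Tgfbr1, the type I receptor for TGF-beta (ENSMUSG00000007613, chromosome 4 from 47353222 to 47414931, plus strand), had 3124 counts (52.3 CPM) and 5386 (89.0 CPM) in the PF4-Cre wild-type and knockout. The ROSA-Cre pair had 715 (29.1 CPM) and 1788 (79.8 CPM). Wild-type levels were unlike between the models, while the knockouts were closer to each other and both higher. Ratios were 1.70 (1.63 to 1.78) and 2.75 (2.52 to 3.0), and the log2 fold change was 1.10 (SE 0.18, edgeR adjusted p = 0.00834). Left out with the Cre model term dropped, the PF4-Cre wild-type library was the only one without which the call held (0.0275), the others giving an edgeR adjusted p of 0.13 to 0.555.

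Bmpr1a, a type I receptor for BMPs (ENSMUSG00000021796, chromosome 14 from 34410734 to 34503341, minus strand), was the least abundant of the 10 per length in wild-type libraries. It had 107 counts (1.79 CPM) and 284 (4.70 CPM) in PF4-Cre. It had 11 (0.447 CPM) and 114 (5.09 CPM) in ROSA-Cre. The knockout libraries again met at nearly the same level. Ratios were 2.62 (2.09 to 3.31) and 11.4 (6.13 to 23.5), the latter resting on 11 wild-type counts, and the log2 fold change was 1.96 (SE 0.45, edgeR adjusted p = 0.0241). Without the PF4-Cre wild-type library the log2 fold change was 3.44 (edgeR adjusted p = 0.0219), without the PF4-Cre knockout 2.06 (0.0675), without ROSA-Cre wild-type cells 1.47 (0.383) and without their knockout 1.96 (0.084). An annotated antisense gene, Gm17110, shares 290 bases of exon with Bmpr1a and held at most 1 count per library. Of the 5 stem cell markers, Procr and Mecom were called higher (log2 fold changes 6.15 and 1.4), beside 12.6% of all tested genes. Procr went from 0.97 to 45.6 CPM under PF4-Cre and from 0.366 to 70.5 under ROSA-Cre. Hlf, Slamf1 and Flt3 did not pass (edgeR adjusted p = 0.321, 0.0713 and 0.809). The Flt3 ratio was 0.806 under PF4-Cre and 1.51 under ROSA-Cre. The part of these markers in the receptor results was not tested.

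**Figure D2:**
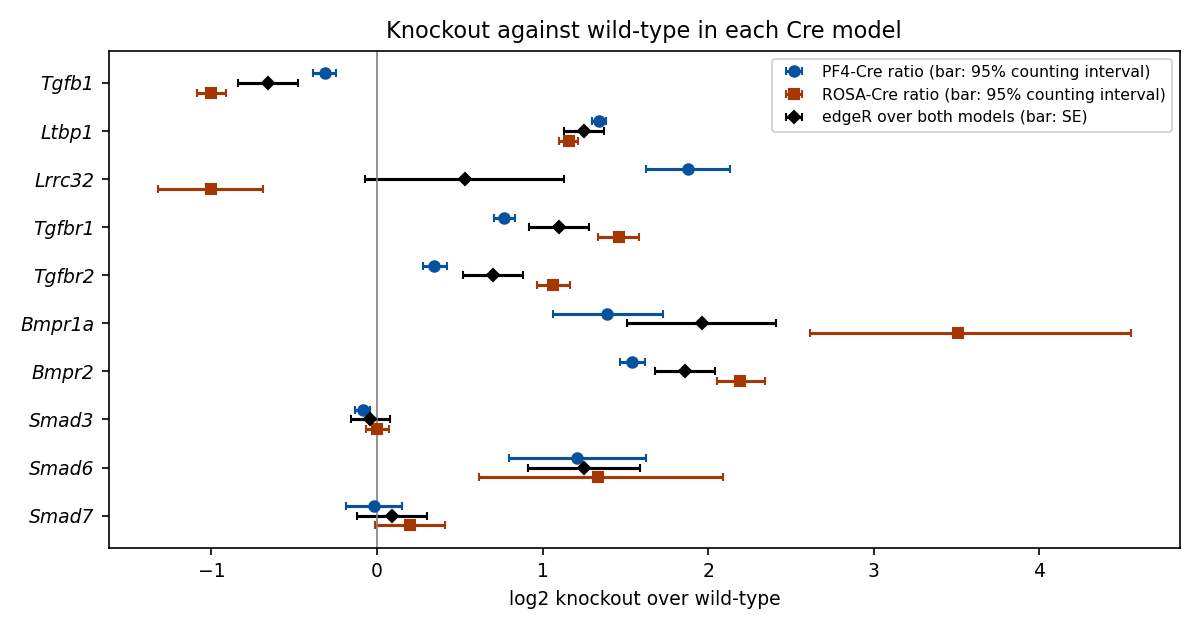
Knockout over wild-type on the log2 scale (x axis) for each of the 10 genes: blue circles PF4-Cre and orange squares ROSA-Cre with 95% counting intervals, black diamonds the edgeR estimate over both models with its SE. For Lrrc32 the models lie on opposite sides of 0 (3.67-fold higher and 2.01-fold lower), and for the 4 receptors the ROSA-Cre ratio is the larger one.

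Within PF4-Cre, 5 of the 10 genes were at least 2-fold higher in the knockout (Bmpr2, Bmpr1a, Ltbp1, Lrrc32 and Smad6) and 0 at least 2-fold lower, against 10.1% and 3.13% of all tested genes. Within ROSA-Cre, 6 were at least 2-fold higher (Tgfbr1, Tgfbr2, Bmpr2, Bmpr1a, Ltbp1 and Smad6) and 1 at least 2-fold lower, against 14.0% and 8.11%. With 1 library a group these are sizes without a test. Lrrc32 was the one lower gene in ROSA-Cre, and Tgfb1 lay at that limit too, so that other scalings gave 0 or 2.

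Receptor messages differed between genotypes in makeup as well as in amount. Among the 5 type II receptor genes, the summed per-length level went from 9.22 to 15.8 CPM per kb for PF4-Cre and 8.85 to 22.2 for ROSA-Cre. Bmpr2 took 18.9% of it in the PF4-Cre wild-type and 32.1% in the PF4-Cre knockout. Its share was 12.3% and 22.6% in ROSA-Cre, and that of Tgfbr2 went from 63.5% to 47.2% and from 68.3% to 56.9%. Both knockouts thus had relatively more of the BMP type II receptor than either wild-type library. Among 7 type I receptor genes the sum went from 16.7 to 21.5 and from 12.4 to 22.7 CPM per kb. Tgfbr1 took 47.9% and 63.5% in PF4-Cre and 35.8% and 53.9% in ROSA-Cre, while Acvr1b, an activin receptor, took 48.5% and 30.2%, then 59.4% and 39.8%. Bmpr1a stayed a minor part, at 1.69% and 3.44%, then 0.566% and 3.53%. These shares are descriptions of single libraries and carry no test.

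**Figure D3:**
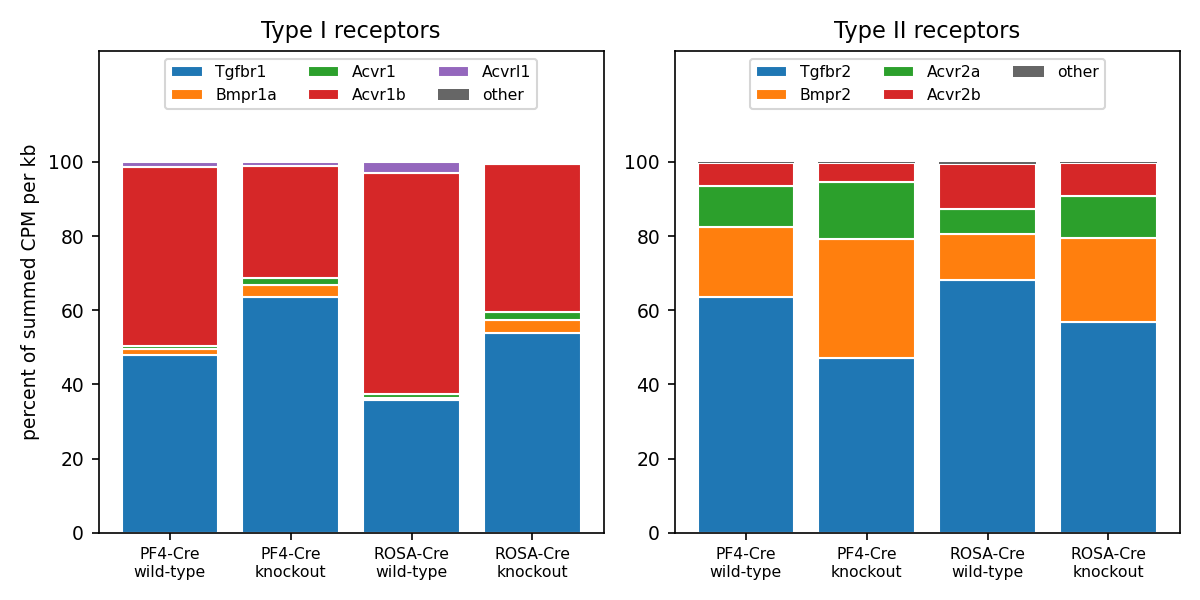
Share of each receptor gene in the summed level of type I (left) and type II (right) receptor genes, in percent of CPM per kb (y axis), 1 bar per library; genes under 1% in every library are drawn together as other. Bmpr2 widens from 18.9% to 32.1% for PF4-Cre and 12.3% to 22.6% for ROSA-Cre.

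GFI1B binds DNA with an AATC core, and promoters of genes that rose are shown with that motif marked. RefSeq windows on GRCm38.p6, from 250 bases before to 50 after a transcript start, were found for 8 of the 10 genes. AATC on either strand (printed as AATC or GATT) occurred in 73.1% of all 32851 windows, with a median of 1 match. Bmpr2, Tgfbr2 and Bmpr1a had 2 matches each, Smad6 had 1, Tgfb1 and Smad3 had 0, and the 2 windows of Ltbp1 had 3 and 2. Tgfbr1 had 0 at its first start and 5 at an internal start. The palindromic Smad element GTCTAGAC occurred in 0.213% of all windows and, among these genes, only in Smad6, where it began 4 bases before the start and ran across it. A shorter Smad element, CAGACA on either strand, was in 21% of all windows, in none of the 4 printed, once at the internal Tgfbr1 start and 2 times at the second Ltbp1 start. The sequences run 5′ to 3′ along the gene, with AATC or GATT in capitals and, in Smad6, GTCTAGAC as well. They are the promoters of 3 receptors that rose and of the inhibitory Smad that rose.
Bmpr2 (chr1:59764029-59764328, plus strand): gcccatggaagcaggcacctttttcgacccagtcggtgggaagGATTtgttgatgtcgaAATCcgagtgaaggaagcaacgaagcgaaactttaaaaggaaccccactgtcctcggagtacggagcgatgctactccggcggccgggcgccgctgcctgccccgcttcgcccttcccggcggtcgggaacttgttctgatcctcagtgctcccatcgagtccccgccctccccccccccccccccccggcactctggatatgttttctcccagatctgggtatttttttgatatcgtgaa
Tgfbr2 (chr9:116175314-116175613, minus strand): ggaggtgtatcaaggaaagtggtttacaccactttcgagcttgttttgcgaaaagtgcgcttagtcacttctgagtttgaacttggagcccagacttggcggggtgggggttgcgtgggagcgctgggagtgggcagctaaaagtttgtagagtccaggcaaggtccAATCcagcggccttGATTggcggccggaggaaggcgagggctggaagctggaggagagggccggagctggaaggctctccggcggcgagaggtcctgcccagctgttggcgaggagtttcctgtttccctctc
Bmpr1a (chr14:34502497-34502796, minus strand): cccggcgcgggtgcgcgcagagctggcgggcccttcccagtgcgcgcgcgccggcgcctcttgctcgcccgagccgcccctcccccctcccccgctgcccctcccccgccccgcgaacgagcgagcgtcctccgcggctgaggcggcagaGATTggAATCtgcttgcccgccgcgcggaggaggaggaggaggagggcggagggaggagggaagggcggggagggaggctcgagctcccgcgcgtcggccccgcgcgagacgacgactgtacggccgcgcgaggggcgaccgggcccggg
Smad6 (chr9:64022010-64022309, minus strand): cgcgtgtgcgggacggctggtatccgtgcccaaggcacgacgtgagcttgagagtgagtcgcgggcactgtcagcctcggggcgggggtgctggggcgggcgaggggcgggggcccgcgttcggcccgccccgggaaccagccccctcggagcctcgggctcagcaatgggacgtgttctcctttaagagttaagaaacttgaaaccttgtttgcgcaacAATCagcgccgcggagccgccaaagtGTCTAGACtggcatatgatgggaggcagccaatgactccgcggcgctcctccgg

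In Bmpr1a the matches began 100 and 94 bases before the start, in Tgfbr2 83 and 69, in Bmpr2 207 and 191, and in Smad6 30. The Bmpr1a window had the most CpG dinucleotides of the 4, 48 against a median of 7 over all windows, and the other 3 had 23 (Bmpr2), 15 (Tgfbr2) and 31 (Smad6). A match of 4 letters describes the sequence and not a bound site.

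Smad6, an inhibitory Smad that acts mainly on BMP receptors (ENSMUSG00000036867, chromosome 9 from 63953076 to 64022059, minus strand), was scarce and higher in both knockouts. Counts were 71 (1.19 CPM) and 166 (2.74 CPM) in PF4-Cre. They were 24 (0.975 CPM) and 55 (2.46 CPM) in ROSA-Cre. The genotypes did not overlap, and the ratios were alike, 2.31 (1.74 to 3.09) and 2.52 (1.53 to 4.25). The log2 fold change was 1.25 (SE 0.34, edgeR adjusted p = 0.0393). That call was lost with DESeq2's Wald test (adjusted p = 0.18), with the older quasi-likelihood method (0.0576), with no filter on low counts (0.0665) and whichever library was left out (0.39 to 0.663).

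Smad3, the receptor-regulated Smad of TGF-beta and activin signals (ENSMUSG00000032402, chromosome 9 from 63646767 to 63757994, minus strand), had 7699 counts (129 CPM) and 7337 (121 CPM) in PF4-Cre. In ROSA-Cre it had 3599 and 3278 counts, 146 CPM in both. All 4 libraries lay close together, and the log2 fold change was -0.04 (SE 0.12, edgeR adjusted p = 0.823). It was the most abundant Smad gene per length in 3 of the 4 libraries, with 26.8% to 35.1% of the summed level of 8 Smad genes, and came second to Smad4 in the PF4-Cre knockout.

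Smad7, the inhibitory Smad that acts on both TGF-beta and BMP type I receptors (ENSMUSG00000025880, chromosome 18 from 75367529 to 75395935, plus strand), had 583 counts (9.75 CPM) and 582 (9.62 CPM) in PF4-Cre. In ROSA-Cre it had 357 (14.5 CPM) and 373 (16.7 CPM). Both ROSA-Cre libraries were above both PF4-Cre libraries, and the genotype test gave a log2 fold change of 0.09 (SE 0.21, edgeR adjusted p = 0.8). For the difference between models its log2 fold change was 0.68 (SE 0.21, edgeR adjusted p = 0.0594), which did not pass.

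The second comparison asked whether the genes differ between the Cre models over both genotypes. Tgfb1 and Ltbp1 were higher in ROSA-Cre, by 0.83 (SE 0.18, edgeR adjusted p = 0.0217) and 0.60 (SE 0.12, adjusted p = 0.0188) on the log2 scale, and 0 of the 10 passed as lower in ROSA-Cre, where 4 of the 10 had an unadjusted p under 0.05 in either direction and DESeq2's Wald test also called 2 higher and 0 lower. Over all tested genes 8.33% were higher and 10.4% lower in ROSA-Cre, and 5407 of the 15063 had an edgeR unadjusted p under 0.05. The Tgfb1 call was lost with no filter on low counts (adjusted p = 0.0583). The models differ in depth as well, so depth and model cannot be told apart.

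Other genes of the pathway were taken from 7 lists by role, 120 genes in all, of which 119 matched an identifier and 72 passed the filter. Of these, 12 rose and 5 fell, beside the 12.6% and 9.59% of all tested genes given above, with a median log2 fold change of 0.12. Left out one library at a time, 3 of the 12 were called in every fit (Fbn1, Tgif1 and Tsc22d1) and 0 of the 5 in any. Ligands other than Tgfb1 were mostly scarce, and 12 of 31 were tested. Gdf3, the most abundant of them per length, fell from 1800 to 1254 counts under PF4-Cre and 795 to 380 under ROSA-Cre (log2 fold change -0.72, SE 0.18, edgeR adjusted p = 0.0296). Bmp2, named here after its value was seen because it was the 1 ligand that rose, went from 8 to 138 counts under PF4-Cre and 11 to 20 under ROSA-Cre (2.93, SE 0.50, edgeR adjusted p = 0.00912), a call lost without the PF4-Cre wild-type (1.93, adjusted p = 0.435) or knockout library (1.86, 0.362), with a value of 3.65 without the ROSA-Cre wild-type library, and that DESeq2's Wald test did not make (adjusted p = 0.0649). Inha, Lefty1 and Gdf11 did not pass (edgeR adjusted p = 0.225, 0.806 and 0.914).

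Of 9 tested receptors and co-receptors outside the 10 genes, 3 rose and 0 fell (5 and 1 at an unadjusted p under 0.05), with a median log2 fold change of 0.68. Of all 15063 tested genes, 12.6% rose and 9.59% fell, and 5564 had an edgeR unadjusted p under 0.05 in either direction. Both knockouts lay above both wild-type libraries in 23.4% of all tested genes. The BMP type I receptor Acvr1 went from 32 to 111 counts and from 17 to 55 (1.79, SE 0.38, edgeR adjusted p = 0.0185). Acvr2a, a type II receptor shared by activins and BMPs, went from 349 to 826 and from 82 to 318 (1.58, SE 0.28, adjusted p = 0.0106). Bambi, a pseudoreceptor that lacks a kinase and blocks signalling, went from 319 to 823 and from 112 to 313 (1.47, SE 0.23, adjusted p = 0.00732). In all 3 genes both knockouts were above both wild-type libraries, and in all 3 the call was lost whichever library was left out (lowest edgeR adjusted p 0.0518, for Acvr2a). DESeq2's Wald test called Acvr2a and Bambi but not Acvr1 (adjusted p = 0.08). Eng, the endoglin co-receptor and the most abundant of the list per length, did not pass (0.28, SE 0.12, edgeR adjusted p = 0.15), nor did the co-receptor Tgfbr3 (-0.48, SE 0.20, adjusted p = 0.126), which went from 5362 to 2902 counts under PF4-Cre and 2701 to 2362 under ROSA-Cre.

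Among 12 tested genes of latency and activation, 2 rose and 1 fell, beside 12.6% and 9.59% of all tested genes. Fbn1, the fibrillin of microfibrils to which latent binding proteins attach, went from 110 to 3743 counts under PF4-Cre and 31 to 1858 under ROSA-Cre, ratios of 33.6 (27.8 to 41.0) and 65.9 (46.2 to 97.2). Its log2 fold change of 5.44 (SE 0.25, edgeR adjusted p = 0.000107) was the largest of all pathway genes tested, the 10 included. Ltbp3, a second latent binding protein, rose by 0.73 (SE 0.17, adjusted p = 0.0263), a call that, of the 4 fits with a library left out, held only without the PF4-Cre knockout (1.40, adjusted p = 0.0433). Its value was also 1.40 without the ROSA-Cre wild-type library (0.0558). Without the ROSA-Cre knockout library the Ltbp3 value was -0.09. These fits have no Cre model term, so genotype and model cannot be told apart in them. Ltbp3 was higher in ROSA-Cre than in PF4-Cre by 1.22 (edgeR adjusted p = 0.00713). Its within-model knockout over wild-type ratios were 1.37 in PF4-Cre (1.27 to 1.48) and 2.0 in ROSA-Cre (1.85 to 2.17). Itgb6, a subunit of an integrin that activates latent TGF-beta, fell from 181 to 79 counts and from 51 to 7 (-1.53, SE 0.41, edgeR adjusted p = 0.0381, and 0.0511 to 0.664 with a library left out, with a value of -3.04 without the PF4-Cre knockout), and DESeq2's Wald test did not call it (0.0652). Furin, the protease that cleaves the precursor, did not pass (0.42, SE 0.14, adjusted p = 0.0713), nor did the microfibril protein gene Emilin1, the most abundant of the list per length (0.10, SE 0.13, adjusted p = 0.625).

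Of 4 tested extracellular antagonists none passed in edgeR (0 of 4, also at an unadjusted p under 0.05, and 0 of 4 by DESeq2's Wald test), namely Fstl1, Twsg1, Dand5 and Fstl3, and Twsg1, the most abundant per length, stood at -0.18 on the log2 scale, without passing (SE 0.14, adjusted p = 0.391). Among the other Smad genes Smad4, the common partner, rose by 0.51 (SE 0.14, edgeR adjusted p = 0.0428, and 0.475 to 0.877 with a library left out). Smad1, Smad2 and Smad5 did not pass, with log2 fold changes of 0.12, -0.09 and 0.10 (edgeR adjusted p = 0.625, 0.681 and 0.643). Of 23 intracellular regulators 4 rose and 3 fell, beside 12.6% and 9.59% of all tested genes. The corepressors Tgif1 and Tgif2, close relatives that bind Smad2 and Smad3, went opposite ways: Tgif1 from 428 to 1183 counts and from 100 to 748 (2.14, SE 0.36, edgeR adjusted p = 0.00862), Tgif2 from 1430 to 741 and from 626 to 208 (-1.19, SE 0.21, adjusted p = 0.00974). Skil, a corepressor that the pathway induces, rose by 0.85 (SE 0.14, adjusted p = 0.00834), and Strap, an adaptor that helps Smad7 block the receptor and the most abundant of the list per length, fell by 0.53 (SE 0.12, adjusted p = 0.0258). Apart from Tgif1, these calls were lost whichever library was left out. Zfyve9 and Fkbp1a, which rose, and Tab1, which fell, are named after their values were seen (edgeR adjusted p = 0.0403, 0.0357 and 0.0498). These 3 calls were lost whichever library was left out, and DESeq2's Wald test did not make those of Zfyve9 and Tab1 (adjusted p = 0.207 and 0.0634).

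Of 8 tested response genes of the pathway, 1 rose and 0 fell in edgeR (3 and 2 at an unadjusted p under 0.05). Of all 15063 tested genes, 12.6% rose and 9.59% fell, and 5564 had an edgeR unadjusted p under 0.05 in either direction. Tsc22d1, a transcription factor gene induced by TGF-beta and the most abundant of the list per length, went from 13688 to 54881 counts under PF4-Cre and 3814 to 13517 under ROSA-Cre, with nearly equal ratios of 3.96 (3.89 to 4.04) and 3.90 (3.76 to 4.04), and a log2 fold change of 1.97 (SE 0.13, edgeR adjusted p = 0.000271). Tgfbi, Klf10 and the cyclin-kinase inhibitor Cdkn1a did not pass (log2 fold changes -0.86, 0.68 and 0.88, edgeR adjusted p = 0.0608, 0.0834 and 0.129), although DESeq2's Wald test called Tgfbi lower (adjusted p = 0.0288) and Klf10 higher (0.0236).

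**Figure D4:**
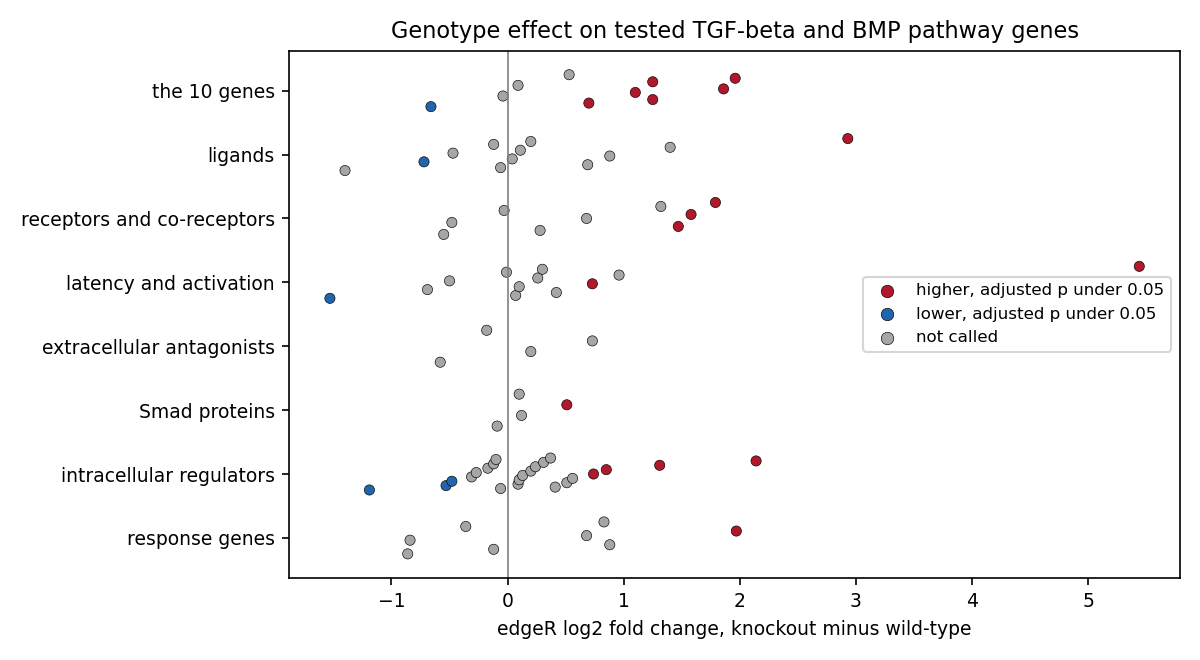
edgeR log2 fold change over both models (x axis) of the 10 genes and of the 72 tested pathway genes by role, 1 point per gene, red higher and blue lower at an adjusted p under 0.05; vertical scatter within a row has no meaning. Fbn1 is the point at 5.44, and the red points make up 6 of the 10 genes and 12 of the 72.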

How the data were processed

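Megakaryocyte RNA from 4 libraries, 1 per group, was measured by paired-end sequencing of stranded mRNA libraries, per the labels' protocols. The authors deposited 1 table of raw HTSeq read counts per library, with 41214 Ensembl genes and 5 category lines, which were left out here. Per the submitters' processing notes the tools were HTSeq, DESeq, SAMtools and TopHat2 2.0.10, and the genome GRCm38 (mm10). How HTSeq was set for overlaps and strand, and with which annotation release, is not given in the sources used here, so reads of overlapping genes cannot be assigned with certainty. Reads with no gene made up 32.1% to 36.2% of the reads in genes, in no gene or ambiguous. Symbols came from a table of gene names and RefSeq synonyms, and positions, merged exon lengths and GC content from GENCODE M21 (GRCm38).

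Counts were analysed with edgeR 4.0.16 in R 4.3.3: filterByExpr by genotype (minimum count 10), TMM, a model of Cre model and genotype, the quasi-likelihood F-test (legacy = FALSE) and Benjamini-Hochberg adjustment over 15063 genes. Prior degrees of freedom were 6.25, and the common biological coefficient of variation was 16.1%. Each SE was derived from the F statistic, as log2 fold change divided by its root. The script was tested on simulated data. Within-model ratios have 95% Clopper-Pearson intervals, which cover counting error only. With 1 library per group they hold no spread between libraries, and they are too narrow where reads are not independent molecules. Alternatives included DESeq2 1.42.0, other scalings and filters, a GC and length correction (natural splines, 4 degrees of freedom) and leaving out each library.

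The 10 genes, the 7 pathway lists, the 10 marker lists and the tests were chosen with earlier results of these data known. Named from each pathway list were up to 4 genes with the smallest p among those averaging 1 CPM or more, and the most abundant gene per length, and from each marker list the most abundant gene. Named outside this rule, with their values seen, were Tgfb2, Tgfb3, Nrros, Acvr1b, Cd3e, Foxp3, Procr, Hlf, Slamf1, Flt3, Gm17110, Fstl3, Bmp2, Zfyve9, Fkbp1a, Tab1, Thbs1, Tdgf1 and Nog. The same holds for Elane, Prtn3, Ctsg, S100a8, S100a9, Camp, Ltf, Epor, Hba-a1 and Klf1.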

Additional observations from a re-analysis of the deposited data

Results flagged for a closer look

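Lrrc32 moved in opposite directions in the 2 Cre models: the knockout over wild-type ratio was 3.67 in PF4-Cre and 0.498 in ROSA-Cre, and both counting intervals exclude a ratio of 1. Smad5, a receptor-regulated Smad of BMP signals, did so too but with smaller ratios, 0.949 in PF4-Cre (95% Clopper-Pearson interval 0.921 to 0.978) and 1.21 in ROSA-Cre (1.15 to 1.27). With 1 library per group the difference between the models was not tested for either gene. Of all tested genes, 6.04% had counting intervals on opposite sides of 1.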

How the results depend on the processing

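Bmpr2 passed under every alternative except the fit without the Cre model term (adjusted p = 0.0541), and the GC and length correction and DESeq2 size factors kept the same 7 calls. With the GC and length correction the log2 fold change was 1.55 for Bmpr2, against 1.86 without it, and 1.85 for Bmpr1a, against 1.96. Without the Cre model term, edgeR called 158 genes higher and 4 lower, 0 of the 10 genes higher and 0 lower, and 1 pathway gene higher and 0 lower (against 1904, 1444, 6, 1, 12 and 5). Leaving out 1 library at a time gave 418 to 741 genes higher and 56 to 142 lower, 1 to 3 of the 10 genes higher and 0 lower, and 3 to 5 pathway genes higher and 0 to 1 lower; these fits have fewer samples and no Cre model term. With no filter on low counts 529 genes were lower, 0 of the 10 genes and 1 pathway gene among them, and 3 pathway genes were when only genes averaging 5 CPM or more were tested. Library totals left 0 of the 10 lower. For the Cre model effect, no filter gave 742 genes higher and 981 lower in ROSA-Cre (against 1254 and 1570) and 1 of the 10 higher, and no genotype term gave 0, 1 and 0. Of the 10 genes, those at least 2-fold lower within ROSA-Cre numbered 2 with DESeq2 size factors and 0 with library totals or a pseudocount of 5. Ltbp3, called higher, had log2 fold changes from -0.09 (without the ROSA-Cre knockout library) to 1.4 when 1 library was left out. Those fits cannot tell genotype and Cre model apart, and the Ltbp3 ratio was above 1 within each model. The cause of these changes was not tested. The labels give no replicate numbers, and the Cre model term already compares the genotypes within each model. Depth limits low genes, for example Bmpr1a and Smad6 with 11 and 24 counts in the ROSA-Cre wild-type library and Bmp2 with 8 in the PF4-Cre wild-type library.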

Other observations

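Of the 72 tested pathway genes, 6 had within-model ratios whose counting intervals lay on opposite sides of 1 in the 2 models (8.33%), against 910 of all 15063 tested genes (6.04%). Chosen after its value was seen, Thbs1, the thrombospondin of alpha granules that can activate latent TGF-beta, had 113 and 118 CPM in the PF4-Cre wild-type and knockout and 67.0 and 30.9 CPM in ROSA-Cre, ratios of 1.04 (95% Clopper-Pearson interval 1.01 to 1.08) and 0.462 (0.422 to 0.505). Acvr1b, the most abundant type I receptor gene per length in the wild-type libraries, had ratios of 0.799 (0.75 to 0.852) and 1.22 (1.11 to 1.35). Among the genes below the filter, also picked afterwards, the co-receptor Tdgf1 had 0 and 5 counts in PF4-Cre and 0 and 23 in ROSA-Cre, and the BMP antagonist Nog had 12 counts in the PF4-Cre knockout and 0 in the other 3 libraries.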
